A study of Homo sapiens with 16 samples.

Results

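The HOX cluster genes code for homeodomain transcription factors and comprised 39 of the 19970 protein-coding genes of GENCODE 44 on chromosomes 1 to 22 and X (hg38). They were taken by symbol, as HOXA, HOXB, HOXC or HOXD followed by a number, which gave 11 HOXA genes on chromosome 7, 10 HOXB genes on chromosome 17, 9 HOXC genes on chromosome 12 and 9 HOXD genes on chromosome 2. The data were 16 lists of H3K27ac ChIP-seq peaks from MDA-MB-231 and Hs578T, established triple-negative breast cancer lines, with 8 lists per line. H3K27ac, acetylation of lysine 27 on histone H3, is found at active promoters and enhancers. From each line there were CRISPR control cells and cells with a knockout of Fn14 (Fn14 KO), untreated or given TWEAK, the ligand of the Fn14 receptor (gene TNFRSF12A), with 2 lists for each of the 8 combinations. All cells were serum-starved in Opti-MEM for 8 h first, and TWEAK was given at 10 ng/ml for 48 h with renewal after 24 h. The knockout was made with an inducible Cas9 vector in each line, and the sources used here do not say whether the cells of a line were 1 clone.

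Along each cluster, the genes lie in the order in which they are switched on from head to tail in the embryo, and genes of the same paralog group in different clusters share ancestry and often function. In adult cells the clusters keep a tissue-specific pattern: Polycomb complexes hold silent HOX genes under a repressive mark on the same lysine, while Trithorax-group enzymes and enhancers inside and beside the clusters keep others active. HOX proteins bind DNA with PBX and MEIS cofactors, and altered HOX expression is a recurrent feature of breast cancer.

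The measure was the number of base pairs under a peak (covered bp) within 2 kb on either side of the start of each gene's canonical transcript, a window of 4001 bp. A second measure was the covered length over each whole cluster with 50 kb on either side. A peak list holds no reads, so the sequencing depth behind each value is unknown, and 0 bp says only that no peak was listed. In all 64 pairs of list and cluster the peak names were numbered without a gap. Unless peaks were renumbered, none was taken out between the first and last listed peak of a cluster. This does not cover the rest of a cluster, and a pair held as few as 2 peaks. The 2 lines were compared first, then TWEAK and Fn14 genotype, by two-sided exact permutation tests in which labels were exchanged within strata (1296 arrangements, smallest p 0.00154). The p-values were adjusted by the Benjamini-Hochberg method over all 12548 genes with a peak in at least 2 lists and called at an adjusted p of 0.05. These tests compare lists from 2 lines, not lines in general.

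Peak numbers ran from 39544 to 46295 for the MDA-MB-231 lists and from 44431 to 47197 for the Hs578T lists, which covered 73.1 ± 6.60 Mb and 85.6 ± 3.63 Mb of the genome (mean ± SD, n = 8 lists each). Promoters of VIM, CD44, ZEB1, AXL, FN1 and CAV1, genes of mesenchymal-like breast cancer lines, had a peak in all 16 lists. The hormone receptor genes ESR1 and PGR and luminal GATA3 had none, as did the immune genes PTPRC and CD3E. Of the epithelial genes, EPCAM, KRT8 and KRT18 had a peak in all 16 lists and luminal FOXA1 in 2, while ERBB2 had one in 12. Endothelial PECAM1 had a peak in 6 lists and CDH5 in 0. The TNFRSF12A promoter was covered over 2395 to 2545 bp in control and 2326 to 2520 bp in Fn14 KO lists, and a peak list cannot show the edit itself.

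The promoters of 4 members are shown because they span the range of states found, from marked in every list to never marked. The table of RefSeq promoters (GRCh38.p14) held 20 of the 39 members, 18 of them at the canonical start. HOXB5, HOXB6 and HOXB9 were not matched in it. Each run is the 250 bases before the start, written 5′ to 3′, with matches to the GC box GGGCGG and the TATA box TATAAA, on either strand, in capitals.
HOXA13, chr7:27200092-27200341, minus strand: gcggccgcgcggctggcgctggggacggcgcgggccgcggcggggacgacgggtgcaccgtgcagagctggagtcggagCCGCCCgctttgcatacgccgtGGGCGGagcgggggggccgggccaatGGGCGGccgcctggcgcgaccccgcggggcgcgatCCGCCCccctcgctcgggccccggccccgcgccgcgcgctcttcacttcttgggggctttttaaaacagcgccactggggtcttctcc
HOXD1, chr2:176188418-176188667, plus strand: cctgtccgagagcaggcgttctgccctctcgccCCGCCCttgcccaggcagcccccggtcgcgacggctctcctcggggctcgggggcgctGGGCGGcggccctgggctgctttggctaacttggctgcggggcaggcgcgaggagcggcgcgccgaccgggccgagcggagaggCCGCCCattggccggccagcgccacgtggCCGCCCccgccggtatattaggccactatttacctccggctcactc
HOXD4, chr2:176151300-176151549, plus strand: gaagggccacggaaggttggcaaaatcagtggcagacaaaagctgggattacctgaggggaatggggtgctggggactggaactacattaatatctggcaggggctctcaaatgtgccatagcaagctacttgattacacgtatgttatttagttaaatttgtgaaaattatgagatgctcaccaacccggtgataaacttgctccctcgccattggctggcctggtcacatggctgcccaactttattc
HOXA9, chr7:27165538-27165787, minus strand: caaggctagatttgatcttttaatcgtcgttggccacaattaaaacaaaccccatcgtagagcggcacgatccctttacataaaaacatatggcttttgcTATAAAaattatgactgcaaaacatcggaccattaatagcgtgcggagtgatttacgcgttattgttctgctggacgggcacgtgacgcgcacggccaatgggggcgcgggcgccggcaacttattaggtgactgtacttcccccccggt

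The HOXA13 and HOXD1 runs each held 4 GC boxes, and 40 and 31 CG dinucleotides. The HOXD4 run held 0 GC boxes and 4 CG dinucleotides. The HOXD4 window had a peak in all 16 lists, but the merged peak region begins at position 176151535, near the end of this run. Most of the printed HOXD4 bases were therefore not under a peak. The HOXA9 run, from a promoter without a peak in any list, held 20 CG dinucleotides and 1 TATA box. Over all 35116 promoter runs of this length the median was 11 CG dinucleotides, 42.6% held a GC box and 10.7% a TATA box, against a median of 22 CG dinucleotides in the 18 HOX runs. HOXA7 and HOXD8, with 28 CG dinucleotides each, had no peak in any list.

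The following runs show the most enriched region, among those with a peak in all 16 lists, inside the gene span of the HOXB, HOXC and HOXD clusters. No HOXA region inside the gene span was found in all 16 lists. Each run is the middle 300 bases of the longest stretch covered in every list and free of annotated exons, with matches to the AP-1 motif TGANTCA and the NF-kB motif (GGG, any 5 bases, CC), on either strand, in capitals.
Between HOXB1 and HOXB2, chr17:48536572-48536871, plus strand: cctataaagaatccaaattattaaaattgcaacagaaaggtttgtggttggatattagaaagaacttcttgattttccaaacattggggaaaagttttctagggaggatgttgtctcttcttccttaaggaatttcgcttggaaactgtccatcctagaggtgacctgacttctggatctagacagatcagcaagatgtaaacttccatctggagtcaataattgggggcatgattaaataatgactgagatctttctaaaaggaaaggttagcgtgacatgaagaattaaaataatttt
Beside the alternative HOXC9 start, chr12:53996019-53996318, plus strand: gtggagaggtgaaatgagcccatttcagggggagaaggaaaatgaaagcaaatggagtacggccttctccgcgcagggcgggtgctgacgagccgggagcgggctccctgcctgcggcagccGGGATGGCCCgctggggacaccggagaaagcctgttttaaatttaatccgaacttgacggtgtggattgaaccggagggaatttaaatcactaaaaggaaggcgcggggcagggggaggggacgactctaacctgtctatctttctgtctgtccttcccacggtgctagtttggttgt
Between HOXD13 and HOXD12, chr2:176096865-176097164, plus strand: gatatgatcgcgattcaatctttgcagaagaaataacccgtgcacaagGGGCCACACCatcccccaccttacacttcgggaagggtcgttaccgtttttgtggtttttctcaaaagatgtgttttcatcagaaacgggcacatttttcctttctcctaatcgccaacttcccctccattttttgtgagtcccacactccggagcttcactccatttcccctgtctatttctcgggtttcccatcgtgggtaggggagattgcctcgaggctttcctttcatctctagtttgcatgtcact

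The HOXC and HOXD runs held 1 NF-kB match each and the HOXB run 0, and none held an AP-1 match. In the middle 300 bases of 28319 regions found in all lists, 45.3% held an NF-kB match and 20.4% an AP-1 match. A match is a string of letters and not a shown binding site.

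Most HOX promoters carried no H3K27ac peak. In 28 of 39 members (71.8%) the window held no peak in any of the 16 lists, against 36.1% of all protein-coding genes. In 4 members a peak was present in all 16 lists (10.3%, against 54.6% of all protein-coding genes): HOXB6 and HOXB9, which act in thoracic patterning, HOXD1, which acts in sensory neurons, and HOXD4, which acts in the hindbrain and neck. The other 7 had a peak in 1 to 15 lists: HOXC5 in 14, HOXB5 in 9, HOXA13 in 8, HOXB2 in 7, HOXD12 in 5, HOXB4 in 2 and HOXB3 in 1.

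The clusters differed in this pattern. HOXB had a peak near 6 of its 10 members, among them the hindbrain gene HOXB2, and none near HOXB1, HOXB7, HOXB8 or the prostate gene HOXB13. HOXA had one near HOXA13 and none near the other 10 genes, which include the leukaemia-associated HOXA9 and the uterine genes HOXA10 and HOXA11. HOXC had one near HOXC5 and none near 8, and HOXD one near HOXD1, HOXD4 and HOXD12 and none near 6. By position along the axis, 5 of 12 members of paralog groups 1 to 4, 3 of 11 of groups 5 to 8 and 3 of 16 of groups 9 to 13 had a peak in any list.

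**Figure D1:**
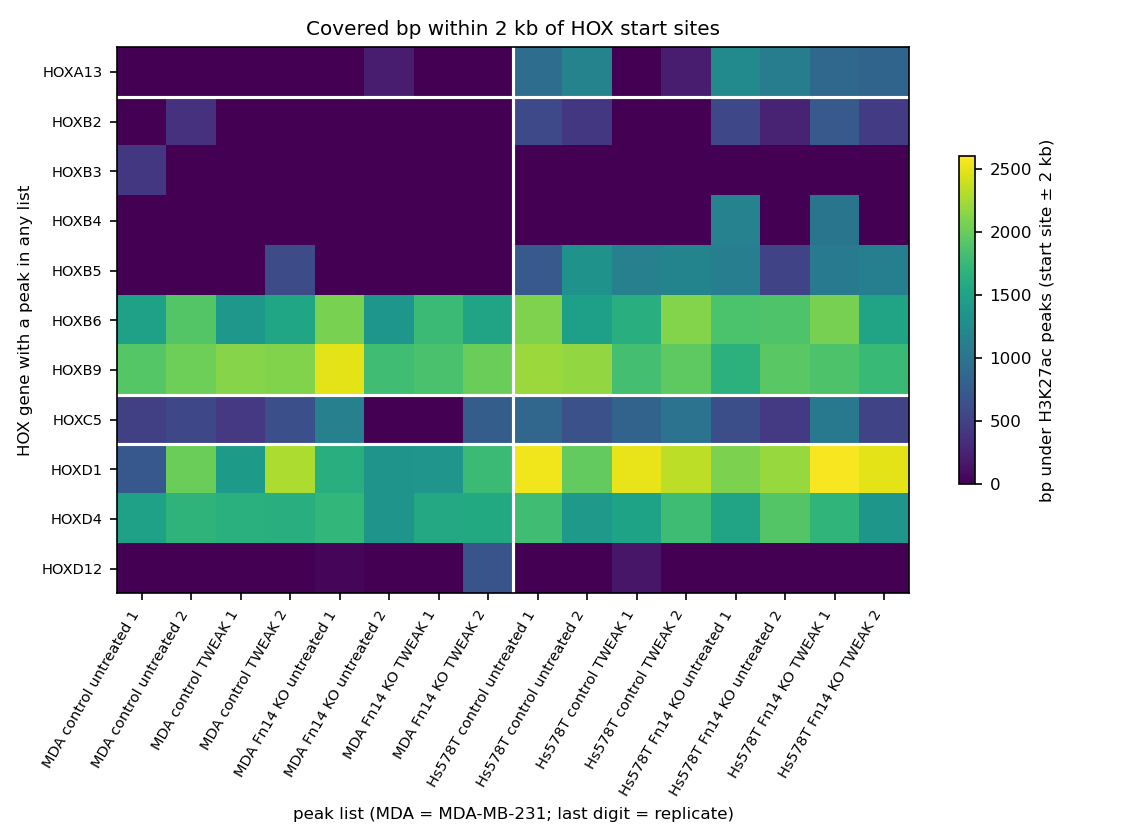
Covered bp (colour) in the 4001-bp window around the start of each of the 11 HOX genes with a peak in any list (rows, by cluster and paralog group) in each of the 16 peak lists (columns, with MDA-MB-231 left and Hs578T right of the white line). Rows for HOXB6, HOXB9, HOXD1 and HOXD4 are filled in all 16 lists and HOXA13 and HOXB5 mainly in Hs578T.

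Peaks did not always lie on the start site. The start itself was under a peak in 16 lists for HOXB6 and HOXB9, in 15 for HOXD1, in 8 for HOXB5, in 3 for HOXC5 and in 1 for HOXA13 and for HOXD4, whose peak lay beside it. Over the 77 distinct starts of the members' protein-coding transcripts, 25 had a peak within 2 kb, and counting these raised the members with a peak from 11 to 15. The additions were HOXA3, HOXC4, HOXC6 and HOXC9, and they included starts with a peak in all 16 lists: a HOXC9 start at position 53995509 of chromosome 12, itself under a peak in every list, HOXC6 starts at 53994944 and 54015897, and a HOXC4 start at 54016931. The HOXC9 start and the HOXC6 start at 53994944 share 1 merged peak region. The HOXC6 start at 54015897 and the HOXC4 start share another, so these peaks cannot be assigned to either gene.

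Between the lines, 3 of the 10 members tested were called, all higher in Hs578T: HOXA13, which patterns the distal limb and the genitourinary tract, HOXB5, which acts in gut innervation and vessel development, and HOXD1. Among all genes tested, 8.73% were called higher in Hs578T, 0.741% higher in MDA-MB-231 and 9.48% in either direction. Of these 10 members, 4 had an unadjusted p under 0.05, as did 3558 of all 12548 genes (28.4%). The median difference over the tested members was −258 bp (MDA-MB-231 minus Hs578T), against −105 bp over all genes tested.

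HOXB5 was listed at 0 bp in 7 of the 8 MDA-MB-231 lists and at 603 bp in the other, control TWEAK replicate 2. In Hs578T it was covered over 731 and 1337 bp in untreated control, 1133 and 1178 bp in TWEAK-treated control, 1114 and 535 bp in untreated Fn14 KO, and 1058 and 1123 bp in TWEAK-treated Fn14 KO cells. Every Hs578T list thus had a peak, and the lines overlapped only through the single MDA-MB-231 list. The means were 75.4 ± 213 bp and 1026 ± 261 bp (SD, n = 8 lists), a difference of −951 bp (adjusted p = 0.0328, exact permutation test). The call was lost without MDA-MB-231 Fn14 KO untreated replicate 2 and without Hs578T control TWEAK replicate 2, where the adjusted p rose to at most 0.0526.

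HOXA13 was listed at 0 bp in 7 MDA-MB-231 lists and at 207 bp in Fn14 KO untreated replicate 2. In Hs578T it was covered over 933 and 1158 bp in untreated control, 0 and 210 bp in TWEAK-treated control, 1242 and 1104 bp in untreated Fn14 KO, and 875 and 834 bp in TWEAK-treated Fn14 KO cells. The TWEAK-treated Hs578T control lists were therefore at the MDA-MB-231 level and the other 6 Hs578T lists were not. The means were 25.9 ± 73.2 bp and 795 ± 452 bp (SD, n = 8 lists), a difference of −769 bp (adjusted p = 0.0489, exact permutation test). The same peak lay beside HOTTIP, a noncoding RNA divergent from HOXA13, so these values cannot be assigned to either start. Leaving out 1 list ended the HOXA13 call in 13 of 16 cases, all but MDA-MB-231 control untreated replicate 2, MDA-MB-231 Fn14 KO untreated replicate 1 and Hs578T control TWEAK replicate 1.

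HOXD1 was marked in both lines. Its MDA-MB-231 values were 712 and 2020 bp in untreated control, 1420 and 2285 bp in TWEAK-treated control, 1633 and 1347 bp in untreated Fn14 KO, and 1357 and 1768 bp in TWEAK-treated Fn14 KO cells. Its Hs578T values were 2543 and 1976 bp, 2513 and 2338 bp, 2088 and 2199 bp, and 2575 and 2491 bp in the same order. The ranges overlapped, with the lowest value in MDA-MB-231 control untreated replicate 1. The means were 1568 ± 480 bp and 2340 ± 228 bp (SD, n = 8 lists), a difference of −773 bp (adjusted p = 0.0424, exact permutation test). Its peak also spans the start of the antisense noncoding gene HAGLR. Leaving out 1 list ended the HOXD1 call in 11 of 16 cases, and it remained without MDA-MB-231 control untreated replicate 2, control TWEAK replicate 2, Fn14 KO untreated replicate 1 or Fn14 KO TWEAK replicate 1, or without Hs578T Fn14 KO TWEAK replicate 2.

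**Figure D2:**
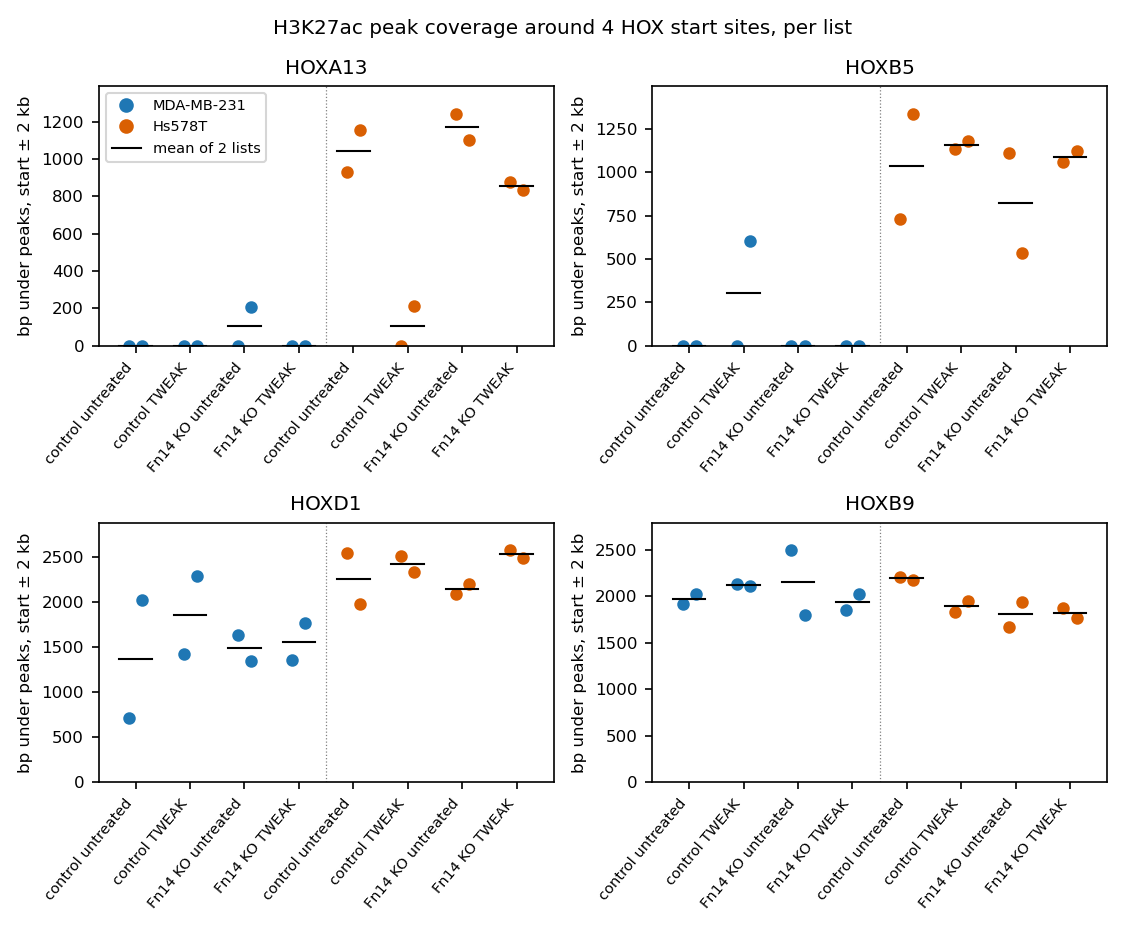
Covered bp within 2 kb of the start of HOXA13, HOXB5, HOXD1 and HOXB9 in each of the 16 lists (points), by genotype and treatment, with the mean of the 2 lists of each group (line). HOXA13 and HOXB5 lie at 0 in 7 of 8 MDA-MB-231 lists, HOXD1 is lower there than in Hs578T on average, and HOXB9 lies between 1672 and 2493 bp in every list.

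The other tested members did not pass. HOXB2 had a peak in 1 MDA-MB-231 and 6 Hs578T lists (46.3 ± 131 bp and 373 ± 268 bp, SD, n = 8; adjusted p = 0.0681, exact permutation test). HOXB4, a regulator of blood stem cells, had one only in the 2 Hs578T Fn14 KO replicate 1 lists, with 1150 and 1009 bp. HOXB6 differed by −200 bp (adjusted p = 0.393), HOXC5 by −245 bp (adjusted p = 0.375), HOXD4 by −38.9 bp (adjusted p = 0.817), HOXB9 by 116 bp (adjusted p = 0.547) and HOXD12 by 71.8 bp (adjusted p = 0.734), all by the exact permutation test with n = 8 lists per line. Peak height gave a wider contrast for HOXB6: the highest fold enrichment in its window was 4.41 ± 0.534 in MDA-MB-231 and 8.04 ± 0.928 in Hs578T (SD, n = 8 lists), with no overlap between lines. By fold enrichment, 6 members were called higher in Hs578T (HOXA13, HOXB2, HOXB5, HOXB6, HOXC5 and HOXD1), where 7.41% of all genes were called higher in Hs578T and 11.9% higher in MDA-MB-231.

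The Hs578T lists covered more of the genome, and this moved with the line comparison. When each value was divided by its list's total covered length, the median difference over all genes went from −105 to 164 bp, and the calls over all genes went from 1096 higher in Hs578T and 93 higher in MDA-MB-231 to 376 and 3585. HOXA13, HOXB5 and HOXD1 stayed called higher in Hs578T, HOXB2 was called as well, and HOXB9 was called higher in MDA-MB-231. With only the 39544 highest-scoring peaks of each list, HOXA13 (adjusted p = 0.0704) and HOXB5 (adjusted p = 0.0875, exact permutation tests) were no longer called, and HOXC5 and HOXD1 were called higher in Hs578T.

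TWEAK, Fn14 genotype and their interaction gave 0 called members and 0% called genes each by the exact permutation test. At an unadjusted p under 0.05 there were 1148, 1150 and 969 of 12548 genes, and 1, 0 and 0 of the 10 tested members. With 1296 arrangements a call needed at least 388 genes at the smallest p, and TWEAK had 38, so the absence of calls is no measure of how small the effects were. The member was HOXA13, with a TWEAK difference of −341 bp (unadjusted exact permutation p = 0.0278, adjusted p = 0.482). HOXB2 had the same layout in Hs578T control cells, with 576 and 421 bp untreated and 0 and 0 bp with TWEAK, against 559 and 251 bp untreated and 724 and 454 bp with TWEAK in Fn14 KO cells (TWEAK by genotype, adjusted p = 0.622, exact permutation test). In control cells of both lines, 0 members were lower and 0 higher with TWEAK without overlap, where 10.3% and 4.66% of all genes were.

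HOXB9 was singled out for its peak height after its values were seen. Its highest fold enrichment was 15.3 and 14.5 in untreated and 17.6 and 18.8 in TWEAK-treated MDA-MB-231 control lists, and 8.85, 7.69, 6.27 and 7.47 in the 4 Fn14 KO lists. In Hs578T the control values were 10.9 and 10.1 untreated and 13.2 and 11.8 with TWEAK, and the Fn14 KO values were 8.06, 8.37, 7.79 and 8.37. In both lines every Fn14 KO list was lower than every control list, and the TWEAK-treated control lists were higher than the untreated ones. HOXB9 was the only member with either pattern, which 1.42% and 18.3% of all tested genes shared. The opposite patterns, higher in Fn14 KO or lower with TWEAK, held for 0.0638% and 11.6% of genes and for 0 members. The Fn14 KO difference was −6.15 fold-enrichment units (adjusted p = 0.0580, exact permutation test) and that of TWEAK by genotype 3.42 units (adjusted p = 0.225), so neither passed, and 0% of all genes were called by fold enrichment in either comparison, with 3942 and 2287 genes at an unadjusted p under 0.05. The median fold enrichment over all peaks was 5.53 to 5.89 in MDA-MB-231 control and 5.0 to 5.21 in MDA-MB-231 Fn14 KO lists, and 5.18 to 5.47 and 5.19 to 5.45 in Hs578T. Its part in the HOXB9 values was not tested. HOXC5 had a Fn14 KO difference of −1.17 units with the same adjusted p (0.0580, exact permutation test) and did not pass. The HOXC5 control and Fn14 KO ranges overlapped, at 2.955 to 3.71 and 0 to 2.956 in MDA-MB-231. In Hs578T they were 3.70 to 4.38 and 3.29 to 3.71.

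Of the whole clusters, HOXB had the most covered length. With 50 kb on either side, HOXB was covered over 21.2 ± 2.91 kb in MDA-MB-231 and 28.3 ± 2.89 kb in Hs578T, HOXD over 5.20 ± 0.768 and 6.34 ± 0.312 kb, HOXC over 5.39 ± 0.895 and 5.81 ± 1.03 kb, and HOXA over 2.36 ± 0.595 and 3.13 ± 0.277 kb (SD, n = 8 lists each). As a share of length, HOXB exceeded 87.6% of 10349 tiles of 200 kb, HOXD 56.4%, HOXC 52.4% and HOXA 34.1%. These tiles are those with a peak in at least 2 lists, so the shares are not ranks over the whole genome.

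By line, HOXA (−0.764 kb, adjusted p = 0.0346), HOXB (−7.08 kb, adjusted p = 0.00789) and HOXD (−1.14 kb, adjusted p = 0.00789) were called higher in Hs578T and HOXC was not (−0.422 kb, adjusted p = 0.358), by the exact permutation test adjusted over the clusters and all tiles. Among the tiles, 40.2% were called higher in Hs578T and 4.09% higher in MDA-MB-231, so calls in this direction were common among tiles with peaks. The cluster windows contain the promoter windows, where HOXA13 differed by −769 bp and HOXD1 by −773 bp. The HOXA and HOXD cluster calls are therefore not separate from these promoter calls. Divided by total covered length, the HOXB difference was −3.15 kb and stayed called, and the HOXA and HOXD differences did not pass. The HOXA gene span ends at the HOXA13 start, so most of the HOXA13 peak lay in the 50 kb at higher coordinates. That flank was covered over 0.0259 ± 0.0732 kb in MDA-MB-231 and 0.781 ± 0.438 kb in Hs578T. The flank at lower coordinates was covered over 1.38 ± 0.262 and 1.79 ± 0.401 kb (SD, n = 8 lists each). The HOXA call also depended on the flanks: within the gene span alone HOXA was covered over 0.952 ± 0.517 kb in MDA-MB-231 and 0.550 ± 0.310 kb in Hs578T. It was lost without any 1 of 6 lists: MDA-MB-231 control untreated replicate 1, control TWEAK replicate 1 or Fn14 KO untreated replicate 2, or Hs578T control untreated replicate 1 or 2 or Fn14 KO untreated replicate 1 (adjusted p up to 0.0755).

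**Figure D3:**
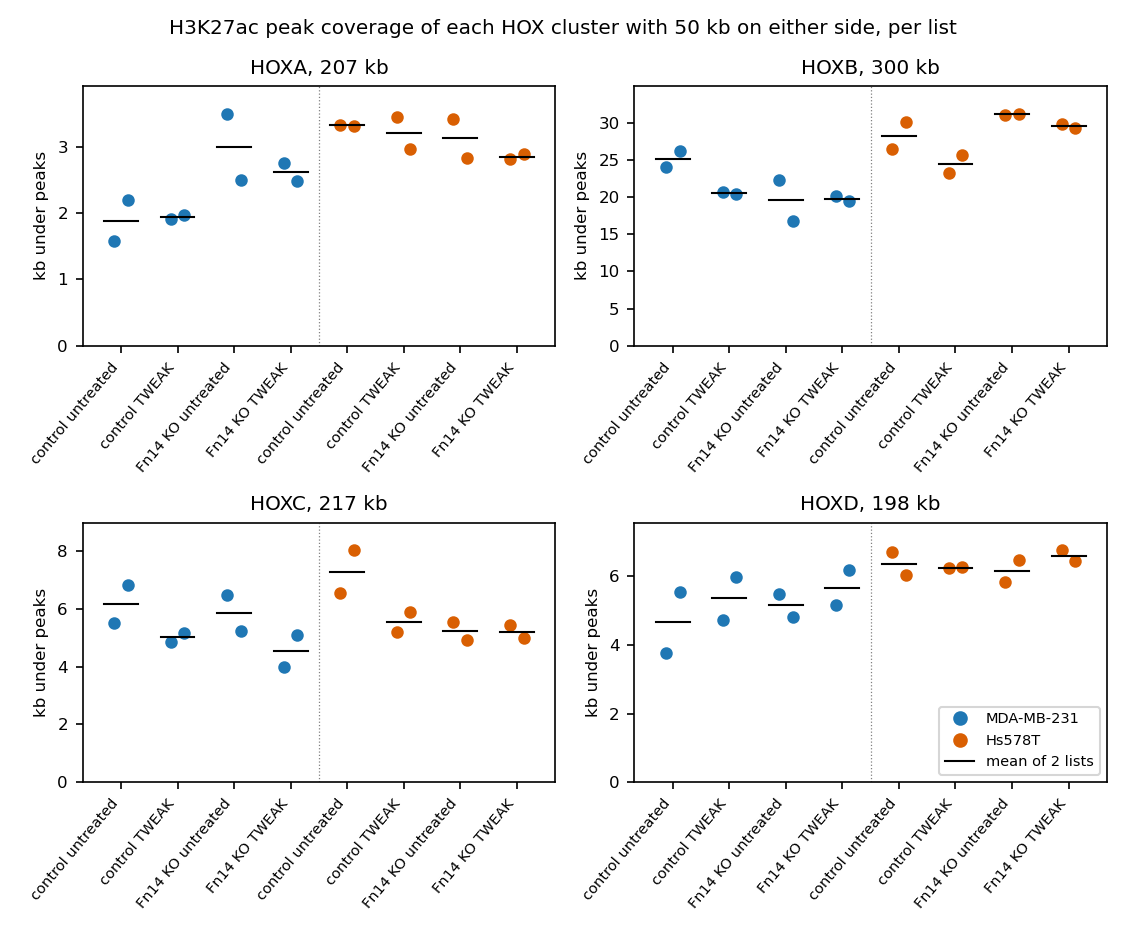
Kilobases under peaks in each HOX cluster with 50 kb on either side, per list (points), by genotype and treatment, with the mean of the 2 lists of each group (line). HOXB reaches 31.2 kb in Hs578T Fn14 KO cells and falls to 16.8 kb in MDA-MB-231 Fn14 KO cells, while HOXA never exceeds 3.50 kb.

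TWEAK, genotype and their interaction gave 0 called clusters of 4 and 0% called tiles each, with 1992, 2418 and 1680 tiles and 2, 0 and 0 clusters at an unadjusted p under 0.05 (exact permutation test, for which a call needed 320 windows at the smallest p). In control cells, HOXB coverage went from 24.1 and 26.2 kb untreated to 20.6 and 20.4 kb with TWEAK in MDA-MB-231, and from 26.4 and 30.01 to 23.3 and 25.6 kb in Hs578T. HOXC went from 5.49 and 6.81 to 4.86 and 5.16 kb in MDA-MB-231, and from 6.53 and 8.02 to 5.21 and 5.88 kb in Hs578T. Both clusters were lower with TWEAK without overlap in each line, as were 18.6% of tiles, while 15% were higher. The mean differences were −4.21 and −1.43 kb, each at the smallest p these 36 arrangements allow, 0.0556 (exact permutation test). In Fn14 KO cells the differences were −0.689 kb for HOXB (p = 0.722) and −0.669 kb for HOXC (p = 0.222), and TWEAK by genotype did not pass for HOXB (adjusted p = 0.421) or HOXC (adjusted p = 0.687, exact permutation tests).

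The peaks merged into 33 regions found in at least 2 lists: 18 in HOXB, 6 in HOXC, 5 in HOXA and 4 in HOXD. Of these, 14 were found in all 16 lists (42.4%, against 51.3% of 55219 regions in the genome) and 11 lay within 2 kb of a member's canonical start. The highest enrichment lay in the flank beyond HOXB1, at chr17:48477564-48488879, intergenic but for a Y RNA gene, with a mean fold enrichment of 32.6 ± 8.51 in MDA-MB-231 and 45.4 ± 2.97 in Hs578T (SD, n = 8 lists). Within the HOXB gene span it was highest in the region between HOXB1 and HOXB2, shown above in sequence, with 15.0 ± 6.05 and 23.4 ± 1.88.

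Both HOXB regions had lower values in MDA-MB-231 Fn14 KO cells. In the flank region they were 38.0 to 42.7 in the 4 MDA-MB-231 control lists and 20.7 to 28.8 in the 4 Fn14 KO lists, and between HOXB1 and HOXB2 18.8 to 23.3 and 8.59 to 12.7. The Hs578T control and Fn14 KO ranges overlapped in both regions, at 42.3 to 49.1 and 40.7 to 47.0, and at 23.4 to 25.8 and 20.9 to 24.4. These regions were chosen after their values were seen and were not tested. The share of all regions with the same layout was not counted. The median fold enrichment over all peaks was also lower in MDA-MB-231 Fn14 KO lists, at 5.0 to 5.21 against 5.53 to 5.89 in control lists. In Hs578T it was 5.19 to 5.45 against 5.18 to 5.47. Its part in the region values was not tested.

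The most enriched HOXC region, chr12:53994498-53996636, overlaps exons of HOXC9, HOXC6 and HOXC-AS2 and had 15.8 ± 2.20 in MDA-MB-231 and 12.7 ± 0.733 in Hs578T. The most enriched HOXD region, chr2:176095802-176098470, overlaps the last part of HOXD13, a gene of digit formation, and had 8.97 ± 1.59 and 10.6 ± 0.761 (SD, n = 8 lists each). Inside the HOXA gene span the region found in most lists, chr7:27114934-27115879, lies in HOXA3 and HOXA-AS2 and was found in 8 MDA-MB-231 and 4 Hs578T lists. HOXA3 acts in the pharyngeal arches and the thymus.

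**Figure D4:**
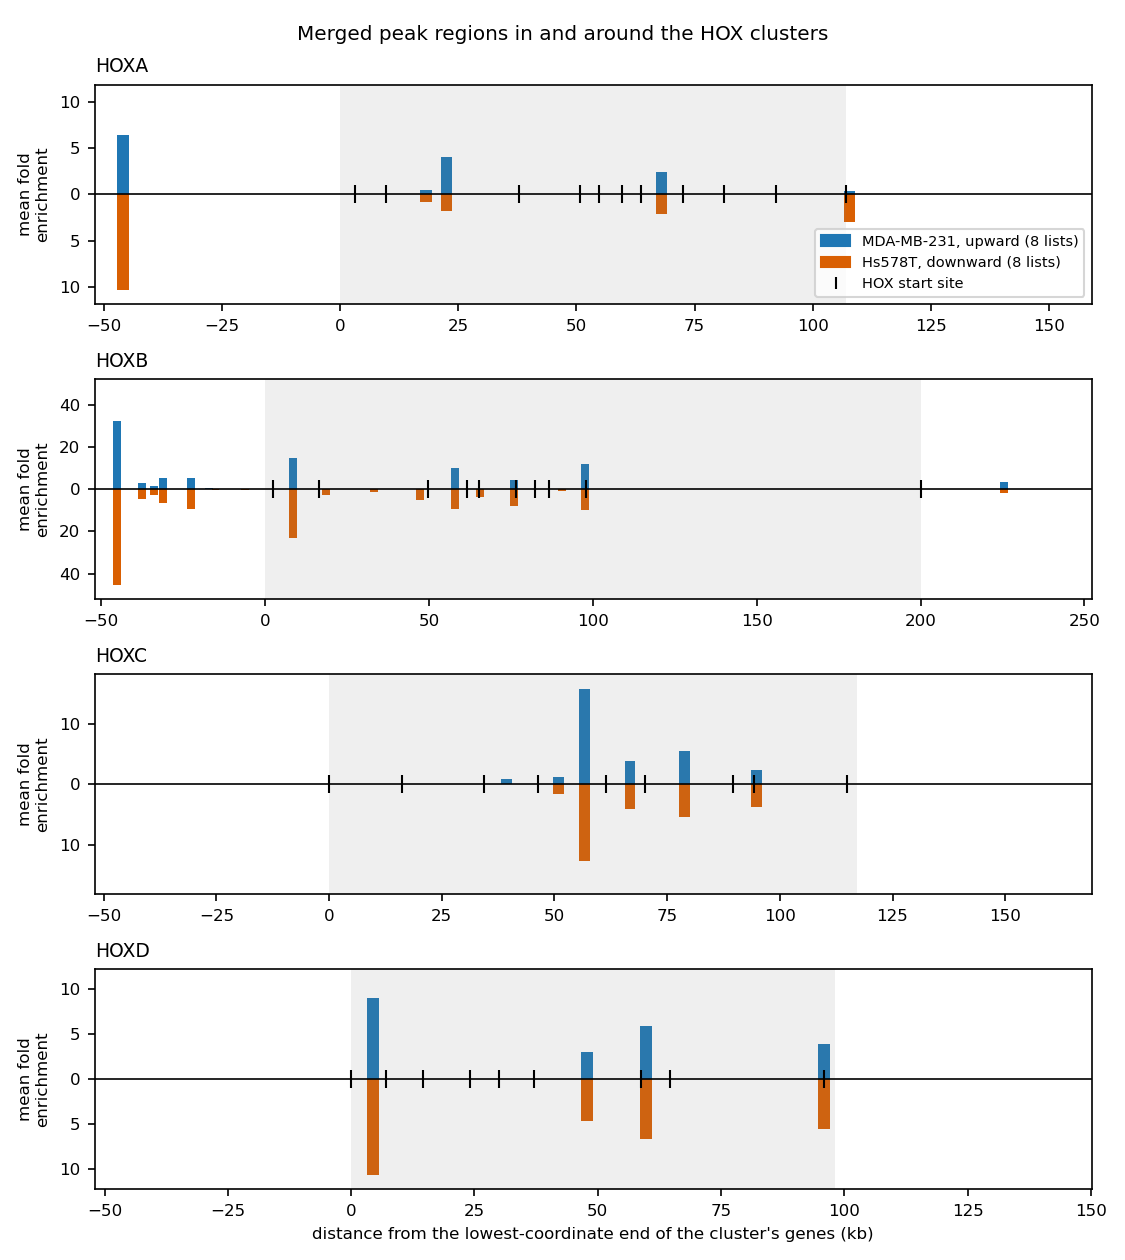
Mean fold enrichment of each merged region over 8 MDA-MB-231 lists (upward bars) and 8 Hs578T lists (downward bars), with 0 for a list without a peak, against distance in kb from the lowest-coordinate end of each cluster's genes (shaded), and start sites as ticks. HOXB holds the tallest bars, in the flank beyond HOXB1 and between its first start sites, and the tallest HOXA bar lies outside its gene span.

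The lines differed in presence at 1 region. The region chr17:48574222-48577499, over exons of HOXB4 and HOXB3, had a peak in all 8 Hs578T lists and in 0 MDA-MB-231 lists, as did 0.328% of regions in the genome, and 0 cluster regions had the opposite layout, against 0.152%. It was covered over 1194 and 1385 bp in untreated control, 967 and 911 bp in TWEAK-treated control, 3278 and 1501 bp in untreated Fn14 KO, and 2662 and 1489 bp in TWEAK-treated Fn14 KO cells of Hs578T. It was lowest in the TWEAK-treated control lists, and the widest values were both Fn14 KO replicate 1.

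By presence of a peak in both lists of an arm and neither of the other, TWEAK in control cells went with 1 gained region in MDA-MB-231 (5.58% of regions in the genome), 2 lost in MDA-MB-231 (4.49%), 1 gained in Hs578T (5.09%) and 3 lost in Hs578T (4.65%). The gained regions were one within HOXD3 between HOXD8 and HOXD4 in MDA-MB-231 and one in HOXA3 in Hs578T. The HOXD3 region, at 202 and 263 bp in TWEAK-treated control MDA-MB-231 cells, was also present in untreated MDA-MB-231 Fn14 KO cells (320 and 622 bp), in their TWEAK-treated counterparts and in all 8 Hs578T lists. The regions lost in both lines were chr17:48494051-48495078, 35933 bp beyond HOXB1, and chr12:53988973-53990645, which overlaps HOXC10 and HOXC6. The genome share of loss in both lines was not counted. In Fn14 KO cells the chr17 region had 632 and 0 bp untreated and 203 and 0 bp with TWEAK in MDA-MB-231, and 595 and 823 and then 808 and 609 bp in Hs578T. The chr12 region had 0 and 815 and then 0 and 0 bp, and 0 and 299 and then 354 and 0 bp. Where listed, its fold enrichment was 2.78 to 3.74, and that of the chr17 region 2.86 to 4.21. The region upstream of HOXB2 was lost in Hs578T. By covered bp, 7 of the 33 regions were lower with TWEAK in control cells of both lines without overlap and 2 were higher, where 14.6% and 11.1% of regions in the genome were. Of the 7, 5 lay in the HOXB cluster, 1 in HOXC and 1 in HOXA.

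The region higher with TWEAK beside HOXA, chr7:27045626-27048276, lay in the flank of the cluster over the pseudogene NHP2P2 and had a peak in all 16 lists. It was covered over 822 and 1163 bp untreated and 1548 and 1523 bp with TWEAK in control MDA-MB-231 cells, and over 1571 and 1597 bp and 2351 and 2475 bp in Hs578T control cells. Its fold enrichment was 4.35 and 6.04 untreated and 7.65 and 8.60 with TWEAK in control MDA-MB-231 cells, and 10.1 and 9.33 and then 16.7 and 16.1 in Hs578T control cells. In Fn14 KO cells the fold enrichment overlapped between treatments, at 7.43 and 5.80 untreated and 5.50 and 6.50 with TWEAK in MDA-MB-231, and at 7.20 and 8.24 and then 7.02 and 8.25 in Hs578T. The other such region, chr17:48753476-48754480, lay 24726 bp upstream of HOXB13 and had a peak in 7 MDA-MB-231 and 3 Hs578T lists. Both were chosen after their values were seen and were not tested.

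Genes that act with or on the HOX clusters differed in how often they were marked, where 54.6% of all protein-coding genes had a promoter peak in all lists. Among 24 Polycomb and Trithorax regulators, 23 had a promoter peak in all 16 lists, and 2 were called by line, both higher in Hs578T: EZH2, the Polycomb methyltransferase (2673 ± 215 bp in MDA-MB-231 and 3269 ± 207 bp in Hs578T, adjusted p = 0.0328), and CBX2, a Polycomb reader (982 ± 239 and 1287 ± 106 bp, adjusted p = 0.0424), with SD over 8 lists per line and the exact permutation test. Over all genes tested, 8.73% were called in this direction, and 2 of 24 (8.33%) is not above that share. Among 9 cofactors 5 were marked in all lists (55.6%), and PBX3 (2401 ± 511 and 3064 ± 189 bp, SD, n = 8 lists each, adjusted p = 0.0328, exact permutation test) was called higher in Hs578T, while MEIS1 had a peak in 3 MDA-MB-231 lists alone. Of 11 genes of retinoic acid and CDX input, which sets HOX expression in the embryo, 4 were marked in all lists (36.4%) and 5 in none (45.5%), and 0 of the 6 tested were called by the exact permutation test, with 1 at an unadjusted p under 0.05 (CRABP2, adjusted p = 0.167). A further list of 28 genes held other homeobox genes and the T-box genes TBX5 and TBX15. Of these 28, 18 had no peak in any list (64.3%), TBX5 and TBX15 among them, and IRX3, SIX4 and PITX1 were called higher in Hs578T. Of the noncoding genes of the clusters, HAGLR, HOXB-AS4 and HOXC-AS2 had a promoter peak in all 16 lists, and HOTAIR, HOTAIRM1 and HAGLROS in 0.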

How the data were processed

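H3K27ac ChIP-seq was measured in 16 samples of 2 cell lines (8 groups of 2, taken from the GEO labels). Per the study's methods and the submitters' processing notes, the authors used Trimmomatic for trimming, Bowtie2 for alignment (hg38) and MACS2 for peaks in each sample against input, and then took out blacklisted regions. Versions are not given in the sources used here. The layout of 9 columns is that of broad peaks. The deposited lists give each peak a position, a score, a fold enrichment ratio, and a −log10 p-value and −log10 q-value, and the authors did not pool replicates.

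Covered bp were computed from the deposited positions with Python 3.11.15, numpy 2.4.6 and pandas 2.3.3, against GENCODE 44 canonical starts. The score and the −log10 q-value of the deposited lists were used only in the alternatives with fewer peaks, and the deposited fold enrichment ratio as a second measure. Genes that had peaks in 2 or more lists were tested by the exact permutation test, as were clusters together with 200 kb tiles, with Benjamini-Hochberg adjustment and a threshold of 0.05. The script was tested on simulated data. The depth behind the peaks is unknown. The study's methods describe its ChIP-seq replicates as biological. Each p-value is the share of label arrangements of these samples whose absolute difference is at least as large as the real one. Members, marker lists and tests were chosen with earlier results of these data known. Values in every list are given for members called in a comparison, and other members by ranges and counts. Alternatives were windows of 1 and 5 kb, another start, no minimum number of lists, fold enrichment, fewer peaks, scaling by total covered length, cluster extensions of 0 and 100 kb, 50% overlap of a region, the replicate block and leaving out each list. The most covered start, covered bp per region and the comparison of fold enrichment between genotypes were added after seeing the data.

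No pairing by replicate number was seen in covered bp: over 28 pairs of groups, the deviations of same-numbered lists over 12548 genes correlated between -0.113 and 0.0499. Covered bp may not show a shared preparation, so this does not exclude one, and the replicate block is given as an alternative. Some genes of the lists are not reported here.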

Additional observations from a re-analysis of the deposited data

Results flagged for a closer look

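In control cells, HOXB9 coverage moved in opposite directions with TWEAK in the 2 lines. It went from 1914 and 2023 bp untreated to 2126 and 2109 bp with TWEAK in MDA-MB-231, and from 2207 and 2174 to 1828 and 1951 bp in Hs578T, without overlap in either line. The difference between the lines in the TWEAK effect over both genotypes was 110 bp (adjusted p = 1, exact permutation test), and the difference in control cells alone was not tested. The same opposite separation held for 2.95% of the genes tested.

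The HOXB cluster moved in opposite directions with Fn14 KO. In MDA-MB-231 it was covered over 24.1 and 26.2 kb in untreated control and 22.3 and 16.8 kb in untreated Fn14 KO cells, and over 20.6 and 20.4 kb and then 20.1 and 19.5 kb with TWEAK. In Hs578T the values were 26.4 and 30.01 kb and then 31.1 and 31.2 kb untreated, and 23.3 and 25.6 kb and then 29.8 and 29.3 kb with TWEAK. Every Fn14 KO list was thus lower than the control lists of its treatment in MDA-MB-231 and higher in Hs578T. The difference of the effects was -7.17 kb (unadjusted p = 0.00154, the smallest these arrangements can give, adjusted p = 0.106, exact permutation test), so it did not pass. The same layout held for 1.45% of the tiles tested. The total covered length ran from 64.2 to 82.9 Mb in MDA-MB-231 and from 77.8 to 88.9 Mb in Hs578T, and its part in this was not tested.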

How the results depend on the processing

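With peaks listed per sample and no reads, depth sets no interval here. Members called higher in Hs578T numbered 3, and 5 with a 5 kb window, 6 by fold enrichment, 1 with only the peaks whose −log10 q-value reached the median of all lists (8.38), which was HOXB6 and none of the 3, and 0 with no minimum number of lists. In the last setting a call needed 617 genes at the smallest p, which 591 reached. In the replicate block, where labels were exchanged only between lists of the same number, 0 members were called (smallest p 0.00781, for which a call needed 1961 genes) and the HOXA cluster difference of -0.764 kb did not pass (adjusted p = 0.0597, exact permutation test). The block changed no other call. Scaling by total covered length gave 1 member higher in MDA-MB-231, HOXA and HOXD line differences of -0.334 kb (adjusted p = 0.331) and -0.214 kb (adjusted p = 0.614, exact permutation tests) that no longer passed, a HOXC line difference of 0.445 kb and a HOXA TWEAK difference in control cells of 0.0857 kb. With the highest-scoring peaks of each list alone, as many as the shortest list has (39544), the HOXA line difference was -0.603 kb (adjusted p = 0.0522, exact permutation test) and its TWEAK by genotype value -0.0240 kb.

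With the q-value limit, the HOXD line difference of -1.17 kb did not pass (adjusted p = 0.136, exact permutation test). The direction turned for the HOXC line difference (0.456 kb), HOXA with TWEAK (0.463 kb over all cells and 0.892 kb in control cells), HOXC and HOXD by genotype (0.000750 and -0.0768 kb) and HOXD TWEAK by genotype (0.930 kb). Regions gained with TWEAK in MDA-MB-231 then numbered 0, lost ones 1, and lost ones in Hs578T 1. Without extension the HOXA line difference was 0.402 kb (adjusted p = 0.149, exact permutation test) and its TWEAK by genotype value -0.0668 kb. With 100 kb, HOXD by genotype was -0.254 kb, its TWEAK by genotype value 0.774 kb and HOXA with TWEAK in control cells 0.150 kb. With 50% of a region covered, 0 regions were in every Hs578T list alone and 2 were gained with TWEAK in Hs578T. Members without overlap in control cells numbered 1 lower and 1 higher with a 5 kb window, 1 lower from the outermost or the most covered start, and 1 higher by fold enrichment. The cause of these changes was not tested.

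Leaving out each list in turn gave 0 to 3 members higher in Hs578T, a HOXA line difference of -0.888 to -0.641 kb, HOXB by genotype -0.278 to 1.11 kb, HOXD TWEAK by genotype -0.631 to 0.253 kb, and TWEAK in control cells -0.188 to 0.126 kb for HOXA and -0.153 to 0.731 kb for HOXD. Regions in every Hs578T list alone numbered 1 to 2 (2 without MDA-MB-231 control TWEAK replicate 2), gained ones 1 to 2 in each line (2 without MDA-MB-231 control TWEAK replicate 1, or without Hs578T control untreated replicate 1 or TWEAK replicate 2), lost ones in MDA-MB-231 2 to 5 (5 without control untreated replicate 1), and members lower with TWEAK without overlap 0 to 1. The adjusted p of HOXA13, HOXB5 and HOXD1 ran over the other alternatives from 0.0222 to 0.113, from 0.0123 to 0.0931 and from 0.0166 to 0.466. The HOXD1 range holds 10 alternatives and those of HOXA13 and HOXB5 hold 9, without a test result at the q-value limit. Where listed, the highest fold enrichment was 2.58 to 4.11 at HOXA13 and 2.68 to 4.80 at HOXB5. The median fold enrichment over all peaks of a list ran from 5.0 to 5.89. The HOXB line difference passed in every alternative run, at -8.11 to -3.15 kb.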
